A study of Mus musculus with 11 samples.

Results

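The 42 genes described here encode proteins that carry a cell through mitosis: the kinases and phosphatases of mitotic entry, the chromosomal passenger complex, the spindle checkpoint with the anaphase-promoting complex, the centromere and kinetochore, the spindle, the cytokinesis machinery, and condensin with other chromosome proteins. They were chosen by name as genes of mitosis, with earlier results of these data known, and all 42 were found among the 55291 gene symbols of the count table. Every one passed the filter on low counts in each comparison, and the lowest count of a member in any library was 82.

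Total RNA was sequenced from E14 cells, a line of mouse embryonic stem cells, kept feeder-free in serum plus LIF, the GSK inhibitor CHIR99021 and a MEK inhibitor. In lines 10E and 11D, targeted independently per the design text, SPT16 carries a C-terminal V5 epitope and an auxin-inducible degron (AID), a sequence through which 3-indoleacetic acid (IAA) directs a protein to degradation. SPT16 and SSRP1 form FACT, a histone chaperone that handles nucleosomes during transcription and replication. The groups were tagged cells given 500 nM IAA for 24 hours (3 libraries: 1 of 10E and 2 of 11D), tagged cells given as much ethanol alone (EtOH) over 24 hours (4 libraries: 2 of 10E and 2 of 11D), and untagged E14 cells given IAA (3 libraries). No untagged cells with EtOH were analysed here, and no protein level, growth rate or cell cycle profile was measured, so the loss of SPT16 protein itself is not seen in these data.

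Mitosis is run by genes that dividing cells transcribe mainly in G2 and M phase. Cyclin B with CDK1, Polo-like kinase and the Aurora kinases start it, the checkpoint holds the anaphase-promoting complex until every kinetochore is attached, and the central spindle then guides cytokinesis. Many of these genes share a promoter layout known from mouse and human cells: CCAAT boxes, bound by NF-Y, lie upstream of a CHR (cell cycle genes homology region) element, bound by the MuvB complex together with B-Myb, FoxM1 or the repressive DREAM proteins. Embryonic stem cells divide fast, with short gap phases.

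Promoter windows from RefSeq (GRCm38.p6, 250 bases before to 50 bases after the annotated start) were at hand for 35 of the 42 members, 38 windows in all. As examples, 6 are shown that include both directions of change reported below. Cenpa (chr5:30666636-30666935, plus strand), Top2a (chr11:99024140-99024439, minus strand), Bub1b (chr2:118597961-118598260, plus strand) and Cdk1 (chr10:69352863-69353162, minus strand) had lower transcript levels with IAA. Ckap2 (chr8:22185770-22186069, minus strand) and Nek2 (chr1:191821223-191821522, plus strand) had higher levels. Capitals mark the CHR element TTTGAA and the box CCAAT on either strand, so TTCAAA and ATTGG are the same motifs read from the other strand, and each run is given 5′ to 3′ on the strand of the gene.
Cenpa: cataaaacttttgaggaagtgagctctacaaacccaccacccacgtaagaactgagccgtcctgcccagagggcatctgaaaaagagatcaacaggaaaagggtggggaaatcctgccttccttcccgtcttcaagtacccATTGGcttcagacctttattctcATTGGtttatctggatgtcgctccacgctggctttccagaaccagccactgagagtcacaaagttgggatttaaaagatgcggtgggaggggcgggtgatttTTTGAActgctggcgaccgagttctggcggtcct
Top2a: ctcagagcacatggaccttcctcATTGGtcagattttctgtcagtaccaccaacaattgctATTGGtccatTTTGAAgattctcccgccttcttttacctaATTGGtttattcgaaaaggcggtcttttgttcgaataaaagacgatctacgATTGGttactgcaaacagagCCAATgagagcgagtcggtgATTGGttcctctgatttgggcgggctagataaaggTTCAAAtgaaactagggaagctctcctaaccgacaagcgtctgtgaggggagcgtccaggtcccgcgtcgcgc
Bub1b: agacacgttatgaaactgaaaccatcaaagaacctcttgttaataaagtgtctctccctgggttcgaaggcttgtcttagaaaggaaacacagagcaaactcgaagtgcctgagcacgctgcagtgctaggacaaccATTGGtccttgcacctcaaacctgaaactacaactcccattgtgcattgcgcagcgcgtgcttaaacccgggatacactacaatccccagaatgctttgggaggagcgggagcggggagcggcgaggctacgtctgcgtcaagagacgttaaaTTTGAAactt
Cdk1: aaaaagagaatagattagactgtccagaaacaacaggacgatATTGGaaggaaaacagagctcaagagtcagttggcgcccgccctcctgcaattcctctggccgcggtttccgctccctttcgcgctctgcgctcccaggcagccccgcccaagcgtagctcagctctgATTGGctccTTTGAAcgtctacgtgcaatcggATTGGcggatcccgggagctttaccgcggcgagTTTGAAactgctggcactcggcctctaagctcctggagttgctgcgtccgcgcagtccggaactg
Ckap2: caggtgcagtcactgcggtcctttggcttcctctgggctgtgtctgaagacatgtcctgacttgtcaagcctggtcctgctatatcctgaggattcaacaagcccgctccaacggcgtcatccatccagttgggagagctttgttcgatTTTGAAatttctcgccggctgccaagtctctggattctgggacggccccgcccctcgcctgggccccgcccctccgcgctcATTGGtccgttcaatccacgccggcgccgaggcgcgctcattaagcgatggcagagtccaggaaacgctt
Nek2: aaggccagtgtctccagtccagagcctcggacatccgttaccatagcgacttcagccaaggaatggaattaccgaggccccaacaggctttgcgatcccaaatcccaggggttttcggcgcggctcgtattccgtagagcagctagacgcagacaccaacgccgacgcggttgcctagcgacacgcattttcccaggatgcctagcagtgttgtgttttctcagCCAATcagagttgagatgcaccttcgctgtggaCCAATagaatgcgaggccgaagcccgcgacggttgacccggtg
The Cenpa, Top2a, Bub1b, Cdk1 and Ckap2 windows hold both motifs, and the Nek2 window holds CCAAT boxes without a CHR element. In Ckap2 the order is reversed: the CHR match is centred at -98.5 and its CCAAT box at -18.0 from the annotated start. The CHR matches at -176.5 in Top2a and at -68.5 in Cdk1 also lie upstream of CCAAT boxes. These windows do not stand for all members of a direction. Spc25, which was higher and is not shown, has CCAAT boxes at -53.0 and -21.0 and its CHR match downstream at 26.5. Bub3, which was lower, has a CHR match at -40.5 upstream of a CCAAT box at -30.0.

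The deposited libraries held 3100127 to 13510163 counts. Levels are given as CPM, counts per 1000000 after scaling each library by edgeR's TMM factor, and summed over the 42 members they reached 5483 to 6020 CPM in tagged IAA, 7334 to 8370 CPM in tagged EtOH and 8242 to 8429 CPM in untagged IAA. As a share of all counts, without that scaling, the members took 0.656% to 0.691% in tagged IAA, 0.698% to 0.789% in tagged EtOH and 0.779% to 0.804% in untagged IAA. Supt16, the transcript of the degron target, averaged 272 ± 17.3 CPM in tagged IAA, 388 ± 21.3 CPM in tagged EtOH and 555 ± 19.6 CPM in untagged IAA libraries (SD, n = 3, 4 and 3), a check of transcript and not of protein. All 10 embryonic stem cell markers were detected in every library, and their summed level was 1961 to 2235 CPM in tagged IAA, 4888 to 6411 CPM in tagged EtOH and 5474 to 5735 CPM in untagged IAA. Summed levels of other lineages were low: fibroblast markers 15.8 to 19.7, 21.6 to 34.3 and 22.1 to 28.7 CPM in the same order of groups, primitive endoderm markers 7.39 to 11.8, 3.11 to 8.37 and 3.35 to 6.70 CPM, trophoblast markers 30.7 to 39.8, 22.7 to 38.3 and 26.1 to 31.1 CPM, and neural markers 80.5 to 105.7, 62.9 to 70.8 and 57.3 to 71.5 CPM. At 0 counts in every tagged IAA library were Postn of the 8 fibroblast markers and Elf5 of the 7 trophoblast markers, while the 7 primitive endoderm and 6 neural markers had none at 0 in all of them. The fibroblast marker Lum was at 0 in 3 tagged EtOH and 3 untagged IAA libraries but in no tagged IAA library. Mitochondrial transcripts took 2.45% to 3.16% of counts in tagged IAA, 1.67% to 2.26% in tagged EtOH and 2.28% to 2.73% in untagged IAA libraries. The sums of stem cell and fibroblast markers were lower, and the sum of neural markers and the mitochondrial share higher, in every tagged IAA library than in any tagged EtOH library. The untagged IAA libraries lay in or overlapped the range of tagged EtOH for these 3 marker sums, and overlapped tagged IAA in the mitochondrial share. The part of these differences in the results below was not tested.

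IAA against EtOH in the tagged lines asks what changed 24 hours after degradation of SPT16 was induced. Of the 42 members, 25 fell, 5 rose and 12 did not pass the test (edgeR quasi-likelihood test, Benjamini-Hochberg FDR under 0.05). The background was wide: 28.1% of all 17904 genes tested fell and 29.3% rose. Members called lower made up 59.5% of the list and those called higher 11.9%. Among the 6827 genes whose mean CPM lay within the range of the members, 46.4% fell and 20.4% rose, so genes of like abundance lay between the members and the full background. The members' median log2 fold change was -0.34, against 0.03 for all genes tested and -0.22 for genes of like abundance. In bulk samples, fewer cells in mitosis and less of a transcript per cell cannot be told apart.

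The size of the change depends on the scaling. With library totals in place of TMM, the median of all genes was 0.33 higher on the log2 scale and 72.9% of calls were higher, against 51.0% with TMM. The members then had 12 lower and 10 higher calls with a median of -0.01. Relative to the median of all genes, the members' median was -0.37 under both scalings, which must be nearly so, as another scaling shifts all genes nearly alike. The 12 that stayed lower under library totals were Cenpa, Top2a, Bub1b, Ect2, Plk1, Kif4, Kif2c, Cdk1, Aurkb, Smc4, Kif20a and Anln, and these passed in each of the 15 alternative fits. Nek2, Ckap2 and Foxm1 passed as higher in all 15 too. With TMM no member rose by 1.5-fold, while with library totals 5 did: Nek2 (0.86), Ckap2 (0.81), Foxm1 (0.75), Spc25 (0.71) and Ndc80 (0.61). Library totals turned 12 members from below to above 0, of which 4 were lower calls with TMM (Cdc20, Kif23, Prc1 and Smc2), and Ttk was the 1 called higher. The other 7, Cdc25b, Cdc25c, Birc5, Cenpe, Cenpf, Nuf2 and Ncaph, had no call under either scaling and lay at 0.08 to 0.16.

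**Figure D1:**
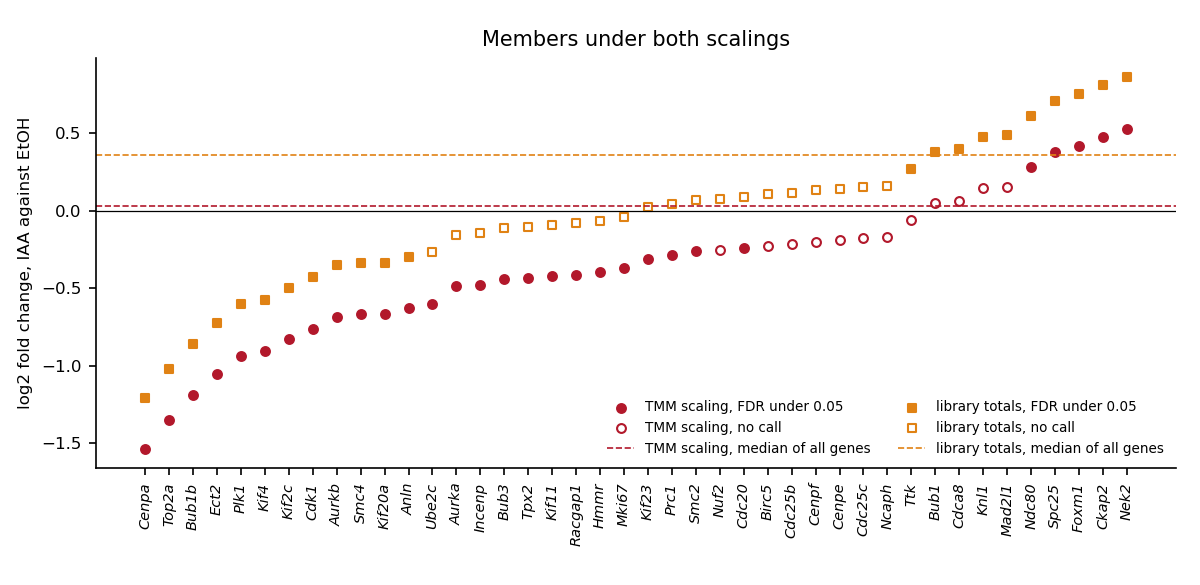
Log2 fold change of IAA against EtOH (y axis) for each member (x axis, ordered by value) with TMM scaling (circles) and with library totals (squares); filled symbols passed FDR under 0.05 and dashed lines mark the median of all genes under each scaling. The order of the members is nearly the same under both, while the zero line falls at another place: 25 lower and 5 higher calls with TMM, 12 lower and 10 higher with library totals.

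By single libraries, 23 of 42 members (54.8%) had all 3 tagged IAA libraries below all 4 tagged EtOH libraries in TMM-scaled CPM, against 24.8% of all genes tested, and 5 members (11.9%) had them above, against 27.6% of all genes. The other 14 members overlapped.

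**Figure D2:**
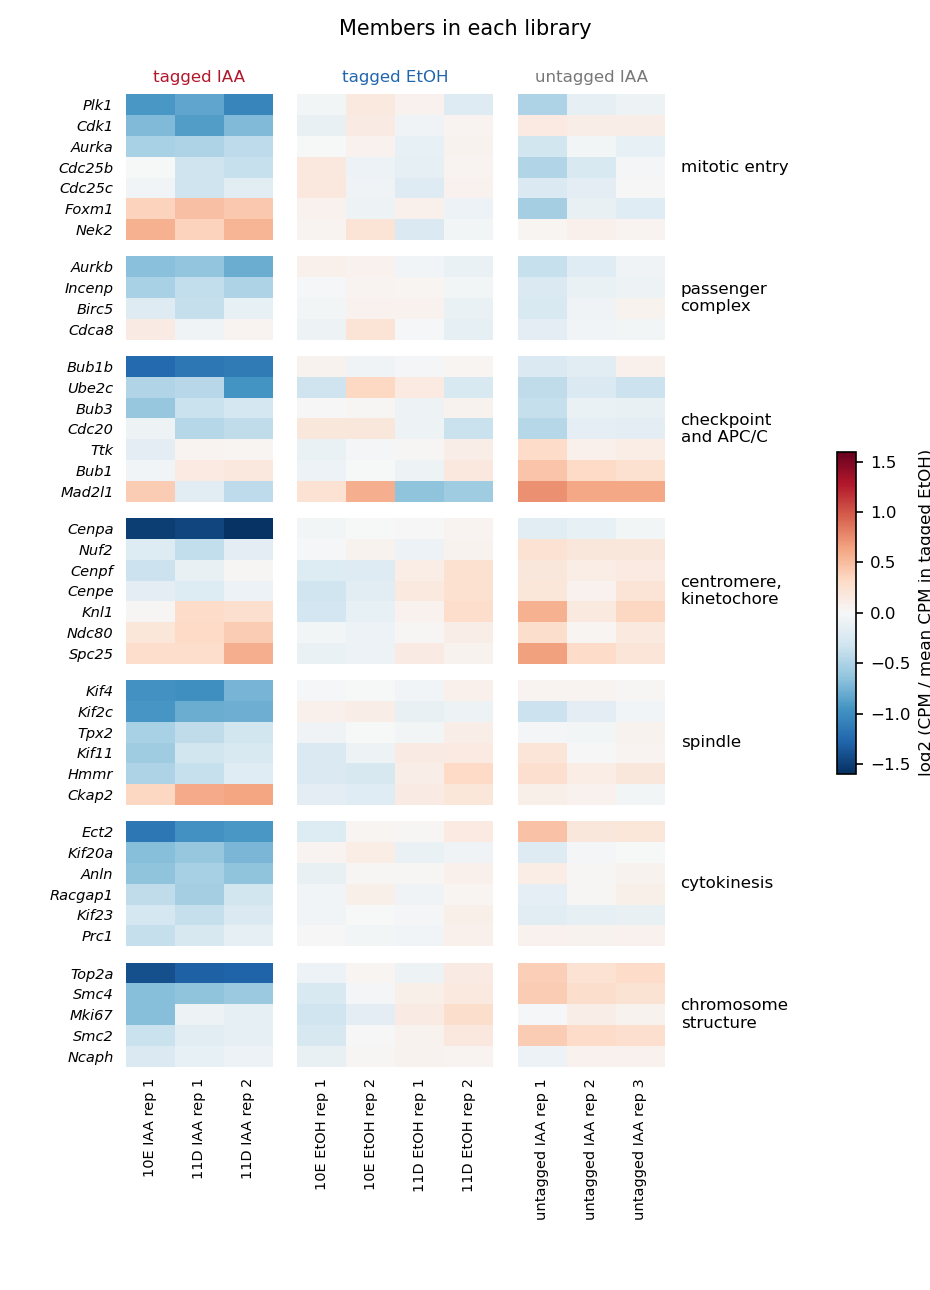
Level of each member (rows, by role) in each of the 10 libraries (columns), as the log2 of its TMM-scaled CPM over the mean of the 4 tagged EtOH libraries; blue is lower and red higher. The tagged IAA libraries are the darkest blue for Cenpa, Top2a and Bub1b and red for Nek2, Foxm1 and Ckap2; Mad2l1 differs between lines 10E and 11D in EtOH, and with library totals every value of an IAA library would lie higher.

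Mitotic entry had 3 genes lower and 2 higher of 7. Plk1, the Polo-like kinase of centrosome maturation and spindle assembly, had 79.8, 85.3 and 73.0 CPM in the tagged IAA libraries (10E, then both of 11D), against 147, 171, 160 and 132 CPM in tagged EtOH (10E, 10E, 11D, 11D). Its groups did not overlap, and the log2 fold change was -0.93 ± 0.11 (SE, FDR 1.9e-06). Cdk1, the kinase that drives entry with cyclin B, had 112, 98.4 and 112 CPM with IAA and 169, 200.3, 174 and 188 CPM with EtOH (-0.76 ± 0.10, FDR 5.56e-06). Aurka, the Aurora kinase of centrosomes and spindle poles, averaged 98.9 ± 3.62 CPM with IAA and 138 ± 8.84 CPM with EtOH (SD, n = 3 and 4; log2 -0.48 ± 0.09, FDR 0.000367), a call that library totals end (-0.15, FDR 0.174).

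Nek2, a kinase that separates the centrosomes, ran the other way, with 135, 118 and 133 CPM in tagged IAA and 93.2, 105.3, 76.5 and 88.2 CPM in tagged EtOH libraries. Every IAA value lay above every EtOH value, and its log2 fold change of 0.53 ± 0.10 (FDR 0.000259) was the highest of the members. Foxm1, the transcription factor that activates many G2 and M phase genes, also rose: 174, 188 and 181 CPM with IAA and 142, 128, 143 and 126 CPM with EtOH (0.42 ± 0.09, FDR 0.000873). The transcript of this activator thus was higher in the same libraries in which Plk1 and Cdk1 were lower. Cdc25b and Cdc25c, phosphatases that activate CDK1, gave log2 values of -0.22 ± 0.14 and -0.17 ± 0.12 with no call, and their groups overlapped.

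The chromosomal passenger complex, which corrects faulty attachments of chromosomes to the spindle, split between its subunits. Its kinase Aurkb had 51.6, 53.2 and 47.4 CPM with IAA and 86.8, 86.1, 78.6 and 76.4 CPM with EtOH (log2 -0.68 ± 0.10, FDR 3e-05). Its scaffold Incenp had 143, 157 and 146 CPM with IAA and 202, 212, 210 and 199 CPM with EtOH (-0.48 ± 0.09, FDR 0.000212), which did not pass with library totals (-0.14). Both genes showed no overlap between groups. The targeting subunits gave no call with TMM: Birc5 (survivin) averaged 80.9 ± 6.94 CPM with IAA and 95.4 ± 5.59 CPM with EtOH (-0.23 ± 0.10, FDR 0.0592), and Cdca8 (borealin) averaged 112 ± 7.98 and 109 ± 12.4 CPM (0.07 ± 0.10, FDR 0.576). With library totals Cdca8 was called higher against EtOH (0.40, FDR 0.00117) and against untagged IAA (0.45, FDR 0.000976), and Birc5 had no call in either.

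Of the 7 genes of the spindle checkpoint and the anaphase-promoting complex, 4 fell and none rose with TMM. With library totals Bub1b alone stayed lower, and Mad2l1 (0.49, FDR 0.00148), Bub1 (0.38, FDR 0.00189) and Ttk (0.27, FDR 0.0183) were called higher. Bub1b, which encodes the checkpoint protein BubR1, had 128, 137 and 139 CPM with IAA and 318, 289, 299 and 312 CPM with EtOH. Its log2 fold change was -1.19 ± 0.09 (FDR 2.55e-08), the third largest fall of the members. The genes of its checkpoint partners gave smaller differences. Bub3 averaged 101 ± 11.9 CPM with IAA and 134 ± 5.59 CPM with EtOH (-0.44 ± 0.10, FDR 0.00121; -0.11 and no call with library totals). The kinase gene Bub1 had 145, 167 and 169 CPM with IAA and 142, 151, 143 and 170 CPM with EtOH, overlapping values with a log2 difference of 0.05 ± 0.09 (FDR 0.662). Ttk, the kinase that starts checkpoint signalling, averaged 104 ± 8.11 and 106 ± 6.48 CPM (-0.06 ± 0.09, FDR 0.568).

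Mad2l1, the checkpoint protein that holds Cdc20 inactive, differed between the lines more than with treatment: 80.0 CPM with IAA and 71.2 and 90.1 CPM with EtOH in 10E, and 52.9 and 44.9 CPM with IAA and 38.5 and 40.7 CPM with EtOH in 11D. Its IAA effect over both lines was 0.15 ± 0.12 (FDR 0.293). Ube2c, the ubiquitin-conjugating enzyme of the anaphase-promoting complex, had 108, 111 and 78.3 CPM with IAA and 119.9, 191, 168 and 127 CPM with EtOH (-0.60 ± 0.15, FDR 0.00356). The 2 EtOH libraries richest in the transcript CT010467.1 (10E replicate 2 with 2.64% and 11D replicate 1 with 4.27% of counts) were the ones with the higher Ube2c values, and without them the Ube2c call was lost (-0.34), as it was with library totals (-0.26, FDR 0.107). Cdc20, the activator of that complex, gave -0.24 ± 0.09 (FDR 0.0329) with overlapping groups, lost its call under 12 of 15 alternatives and turned to 0.09 with library totals.

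The centromere and kinetochore had 1 gene lower and 2 higher of 7. Cenpa, the histone H3 variant that marks centromeres, had 53.8, 55.7 and 51.6 CPM in tagged IAA and 149.6, 154, 156 and 159 CPM in tagged EtOH libraries. This was the largest fall of the 42 genes, -1.54 ± 0.09 (FDR 3.4e-09), with a spread within each group of a few CPM. Of the 3 members of the Ndc80 complex, which binds microtubules at the outer kinetochore, Ndc80 and Spc25 were called higher and Nuf2 had no call. Ndc80 had 70.0, 76.2 and 81.1 CPM with IAA and 59.5, 57.1, 61.8 and 65.9 CPM with EtOH (0.28 ± 0.10, FDR 0.0215), and Spc25 had 46.6, 46.3 and 56.6 CPM with IAA and 35.3, 35.5, 41.3 and 39.2 CPM with EtOH (0.38 ± 0.11, FDR 0.00907). Both passed as higher with no overlap, but both calls were lost without the 10E IAA library or without 11D IAA replicate 2. Ndc80 also lost its call without 11D EtOH replicate 1, without both EtOH libraries richest in CT010467.1, and without the filter on low counts.

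Nuf2, the partner of Ndc80, gave -0.26 ± 0.11 (FDR 0.0582) with IAA libraries below all EtOH libraries. Knl1, the scaffold that recruits Bub1, gave 0.15 ± 0.09 (FDR 0.186). The large proteins Cenpe, a kinesin that moves chromosomes, and Cenpf gave -0.19 ± 0.10 (FDR 0.116) and -0.20 ± 0.09 (FDR 0.0585). Leaving out 10E EtOH replicate 1 turned Nuf2, Cenpe, Cenpf and Birc5 into lower calls, at -0.29, -0.26, -0.23 and -0.26, and Cenpe was also called without the 10E IAA library (-0.36). Cenpf was called when both EtOH libraries with most CT010467.1 were left out (-0.24). Leaving out 11D EtOH replicate 2 turned Knl1 into a higher call at 0.24, and library totals did so at 0.48 (FDR 0.000262).

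Of the 6 spindle genes 5 fell. Kif4, a chromokinesin, had 47.0, 46.9 and 55.1 CPM with IAA and 90.9, 92.3, 88.9 and 97.3 CPM with EtOH (-0.90 ± 0.10, FDR 2.08e-06). Kif2c, which takes microtubules apart at centromeres, had 76.3, 85.0 and 85.6 CPM with IAA and 156, 158, 135 and 139 CPM with EtOH (-0.83 ± 0.10, FDR 3.78e-06). Neither gene showed overlap between groups. Tpx2, which activates Aurora A on the spindle, Kif11, the motor that pushes spindle poles apart, and Hmmr, a protein of the spindle poles, gave -0.43, -0.42 and -0.40, and all 3 lost their calls with library totals (-0.10, -0.09 and -0.07). Ckap2, which promotes microtubule growth, was the exception: 148, 177 and 181 CPM with IAA and 104, 102, 127 and 134 CPM with EtOH (0.48 ± 0.08, FDR 0.000168). Within each line its IAA values lay above both EtOH values.

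All 6 genes of the central spindle and cytokinesis passed as lower, although Prc1 and Kif23 turned to 0.05 and 0.02 with library totals. Ect2, which activates RhoA to set the division plane, had 102, 116 and 119 CPM with IAA and 196, 231, 229.7 and 251 CPM with EtOH (-1.05 ± 0.09, FDR 1.37e-07). Kif20a, a kinesin of the central spindle, averaged 184 ± 7.29 CPM with IAA and 294 ± 21.7 CPM with EtOH (-0.66 ± 0.09). Anln (anillin), which links the contractile ring to the membrane, averaged 226 ± 10.5 and 345 ± 20.2 CPM (-0.63 ± 0.09). The centralspindlin genes Racgap1 and Kif23 gave -0.41 ± 0.09 and -0.31 ± 0.09, and Prc1, which bundles antiparallel microtubules, gave -0.28 ± 0.09. In all 6 the IAA libraries lay below all EtOH libraries. The Racgap1 call was lost with library totals, and the Prc1 call also without the 10E IAA library or 11D EtOH replicate 2.

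Chromosome structure genes were led by Top2a, the topoisomerase that untangles sister chromatids and the most abundant member per kilobase of exon in EtOH (107 CPM per kb). It had 364, 389 and 395 CPM with IAA and 904, 986, 909.9 and 1058 CPM with EtOH (-1.35 ± 0.10, FDR 1.81e-08). The condensin genes were unequal. Smc4 had 157, 162 and 166 CPM with IAA and 211, 246, 268 and 281 CPM with EtOH (-0.67 ± 0.09, FDR 1.42e-05), while its partner Smc2 gave -0.26 ± 0.09 (FDR 0.0208) with overlapping groups, lost its call under 7 of 15 alternatives and turned to 0.07 with library totals. Ncaph, the condensin I link subunit, gave -0.17 ± 0.09 (FDR 0.113) and no call under any alternative. Mki67, the coat protein of mitotic chromosomes and a marker of dividing cells, averaged 450 ± 94.9 CPM with IAA and 546 ± 102 CPM with EtOH. Its IAA value was lower within each line (-0.37 ± 0.09 over both, FDR 0.00252), but the groups overlapped because 11D lies above 10E, and the call was lost with library totals (-0.04) or without the line term (-0.28).

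**Figure D3:**
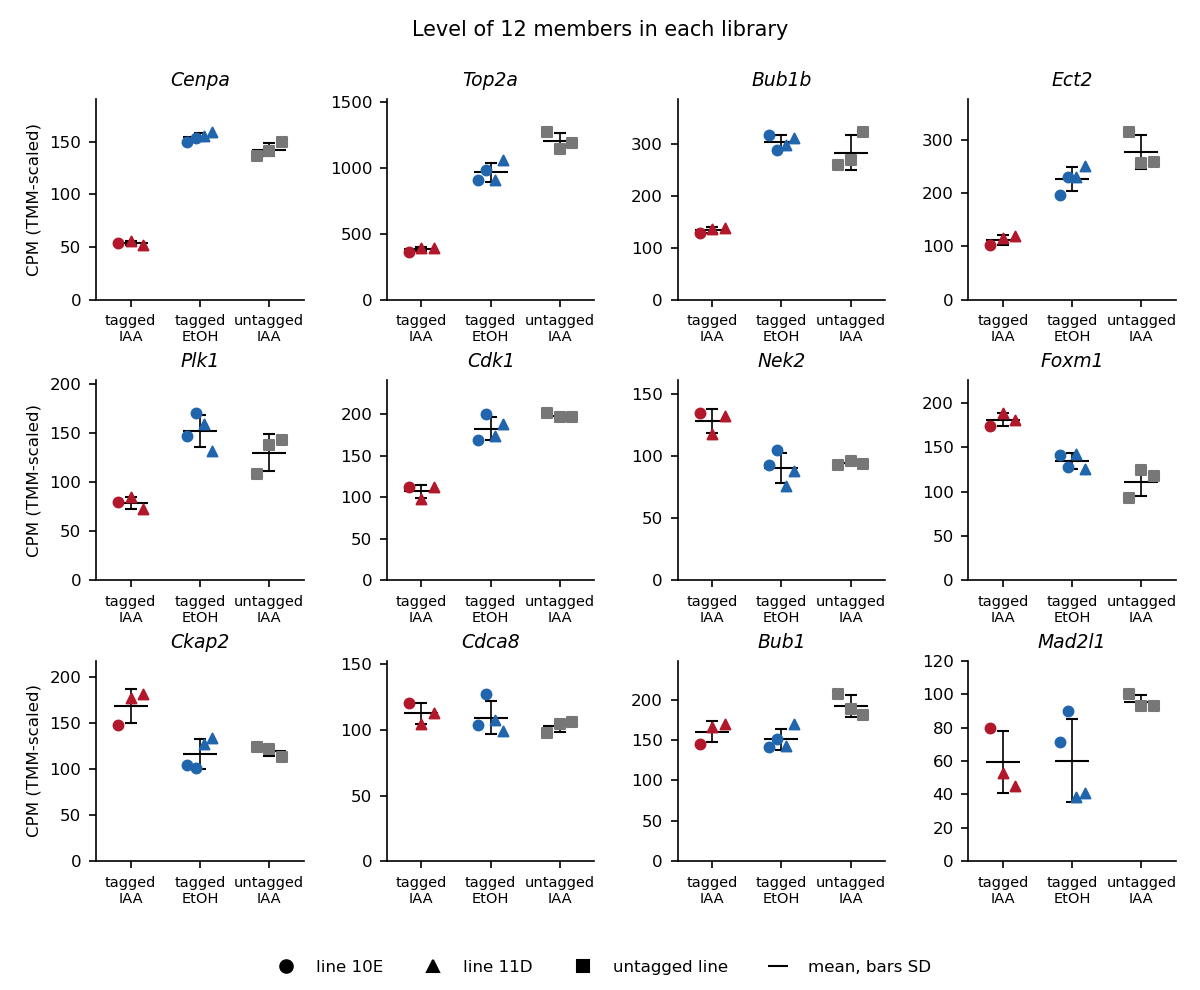
TMM-scaled CPM (y axis, from 0) of 12 members in tagged IAA, tagged EtOH and untagged IAA libraries; each point is a library, its shape the line, and bars give the mean and SD. Cenpa, Top2a, Bub1b, Ect2, Plk1 and Cdk1 are lowest in the 3 tagged IAA libraries, Nek2, Foxm1 and Ckap2 are highest there, Cdca8 and Bub1 overlap between IAA and EtOH, and Mad2l1 separates by line.

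Per kilobase of exon in tagged EtOH, the members' levels ran from 7.17 CPM per kb for Mad2l1, 7.78 for Nuf2 and 7.90 for Cdc25b to 71.2 for Bub1b, 97.9 for Cdc20 and 107 for Top2a. Across the 42 members, a higher level in EtOH went with a lower log2 fold change (Spearman's rho -0.495, Pearson's r -0.485 with mean CPM), a description over genes that share the same 7 libraries, with EtOH counts in both measures. Gene length, 4.5 to 101.5 kb in these genes on 16 chromosomes, gave a rho of -0.045. The exons of 12 members overlap those of another gene, and the strand setting of the counting is not given in the sources used here, so reads of the partner may be counted with them, as with Kif20a and Cdc23 or Cdc20 and Elovl1. They are Cdc25b, Cdc25c, Plk1, Nek2, Foxm1, Cdca8, Cdc20, Ube2c, Kif4, Kif20a, Prc1 and Top2a. Foxm1 (with Gm44596 and Tex52) and Top2a (with Gm23451) overlap genes on the same strand, which counting by strand would not separate.

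The lines were then taken apart. In 10E, 19 members fell and 2 rose, against 18.3% of all genes lower and 17.1% higher, and in 11D 23 fell and 3 rose, against 23.1% lower and 23.1% higher. All 19 lower members of 10E were among the 23 of 11D (100% of the first list and 82.6% of the second), and 39 of 42 members had the same sign in both lines. The 4 lower in 11D alone were Cenpe, Hmmr, Kif23 and Ube2c, and the 1 higher in 11D alone was Foxm1, whose value in 10E was 0.36 ± 0.14 (FDR 0.0588). Cenpa gave -1.51 ± 0.15 in 10E and -1.56 ± 0.12 in 11D, Top2a -1.39 ± 0.16 and -1.33 ± 0.12, and Bub1b -1.25 ± 0.14 and -1.15 ± 0.11. Without 11D EtOH replicate 2, 11D IAA replicate 1 or 11D IAA replicate 2, the 11D count of lower members was 15, 14 and 14, and without 10E EtOH replicate 1 or 11D IAA replicate 1 the 10E count of higher members was 1. With 1 IAA library, the 10E test assumes that it varies like the other groups.

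Testing the difference between lines itself, the line by treatment interaction called 0 of 17904 genes (0% lower and 0% higher, with 872 at an unadjusted p under 0.05), and none of the members. DESeq2 called 1 gene, which is no member. The member nearest to a difference was Cenpe, with 0.07 ± 0.13 in 10E and -0.37 ± 0.11 in 11D and a difference of 0.44 ± 0.17 (unadjusted p = 0.0246 from edgeR's test, FDR 0.938). The median SE of a member's difference was 0.18. As the Cenpe difference of 0.44 did not pass, line differences well above that SE could go uncalled with these libraries.

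Tagged IAA against untagged IAA holds the agent constant, while the line, the tag and the degradation differ. Here 27 members were lower, 3 higher and 12 without a call, against 27.8% of 17439 genes lower and 27.9% higher, and the members' median was -0.35, against 0.02 for all genes. Genes within the members' range of mean CPM had a median of -0.22, and 44.4% of them passed as lower and 20.6% as higher. This comparison uses the same tagged IAA libraries as the one above, so its values are given beside the others and not as separate evidence. Top2a, with 1268, 1144 and 1189 CPM in untagged IAA, gave -1.66 ± 0.10, Cenpa (137, 141 and 149 CPM) gave -1.41 ± 0.10, Ect2 (314, 257 and 259 CPM) gave -1.34 ± 0.11, and Bub1b (259.7, 269 and 323 CPM) gave -1.09 ± 0.10. Foxm1, Nek2 and Ckap2, with 92.6, 124 and 118 CPM, 92.9, 95.9 and 93.9 CPM, and 124, 122 and 113 CPM in untagged IAA, were higher in tagged IAA cells, with log2 fold changes of 0.68 ± 0.11, 0.47 ± 0.10 and 0.45 ± 0.09. All tagged IAA libraries lay below all untagged libraries for 29 members (69.0%), against 30% of all genes, and above them for 3 members (7.14%), against 31.6% of all genes.

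Several members took another place with this reference. Mad2l1 (-0.61 ± 0.12), Bub1 (-0.29 ± 0.10), Nuf2 (-0.44 ± 0.11), Cenpf (-0.34 ± 0.09) and Cenpe (-0.32 ± 0.09) were called lower against untagged cells, while they had no call against EtOH. Whether the 2 comparisons differ was not tested. Of these calls, that of Mad2l1 held under all 15 alternatives and the other 4 were lost with library totals. Bub1 also lost its call with DESeq2, without the 10E IAA library or without 11D IAA replicate 2. Cenpe lost it with the replicate block (-0.27, FDR 0.0645), and Cenpf without the 10E IAA library. Mad2l1 and Bub1 were also called lower in tagged EtOH against untagged IAA (-0.74 ± 0.10 and -0.34 ± 0.09), where the tagged cells had no IAA. Cdc20 (-0.01 ± 0.11), Ube2c (-0.26 ± 0.17) and Kif23 (-0.14 ± 0.09) had no call against untagged cells. Spc25 had 59.6, 46.6 and 43.8 CPM in untagged cells, overlapping the tagged IAA values (-0.01 ± 0.14), and Ndc80 overlapped too (0.13 ± 0.11). With library totals the comparison gave 14 lower and 6 higher members, 11 members turned above 0, among them Bub1 and Bub3 of the lower calls (0.00 and 0.02), and Cdc20 became a higher call at 0.29.

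**Figure D4:**
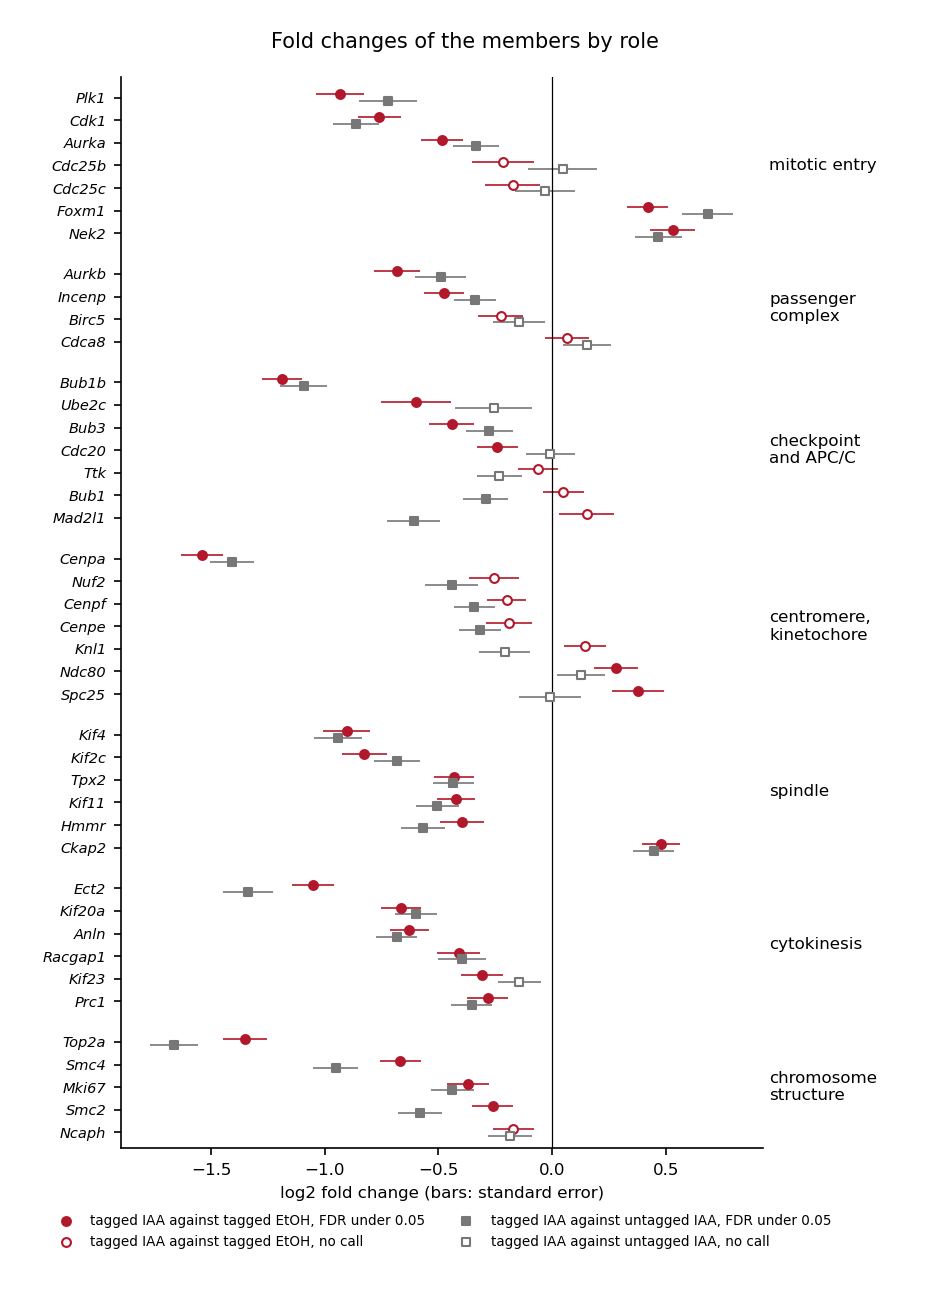
Log2 fold change (x axis, bars give the SE) of each member by role, for tagged IAA against tagged EtOH (red circles) and tagged IAA against untagged IAA (grey squares); filled symbols passed FDR under 0.05. The cytokinesis genes lie to the left of 0 in both, Nek2, Foxm1 and Ckap2 to the right in both, and Mad2l1, Bub1 and Spc25 differ with the reference; with library totals 12 members move to the right of 0 against EtOH and 11 against untagged cells.

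Tagged cells without IAA were also set against untagged cells. Tagged EtOH against untagged IAA, where the tag, the line and the agent differ, called 3 members lower (7.14%) and none higher. Of all 17439 genes, 2.29% were lower and 1.27% higher, so the lower share was larger among the members. At an unadjusted p under 0.05 from edgeR's test there were 13 of 42 members, against 3886 of all 17439 genes. DESeq2 called 6 members lower and none higher, while 39.2% of its calls over all genes were higher. The 3 lower members were Mad2l1 (-0.74 ± 0.10, FDR 0.00316), Bub1 (-0.34 ± 0.09, FDR 0.0474) and Smc2 (-0.33 ± 0.09, FDR 0.0482). Bub1 had 142, 151, 143 and 170 CPM in tagged EtOH and 207, 188 and 181 CPM in untagged libraries, and Smc2 had 238, 286, 297 and 321 CPM and 378, 353 and 344 CPM. Mad2l1 kept its call under every alternative of this comparison. Bub1 lost its call without any single library other than 11D EtOH replicate 2, and Smc2 without any other than 10E EtOH replicate 2 or 11D EtOH replicate 2.

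Between the lines in EtOH, 10E against 11D called 1 member higher and 2 lower, against 1.28% of 17904 genes higher and 1.95% lower. Mad2l1 had 71.2 and 90.1 CPM in 10E and 38.5 and 40.7 CPM in 11D (log2 1.03 ± 0.15, FDR 0.00314), and in untagged cells 100.0, 92.7 and 92.7 CPM. Cenpe (158 and 173 CPM in 10E, 219.7 and 236 CPM in 11D) gave -0.45 ± 0.11 (FDR 0.0398), and Hmmr (159 and 156 CPM in 10E, 202 and 235 CPM in 11D) gave -0.47 ± 0.12 (FDR 0.0444). Leaving out 10E EtOH replicate 1, 10E EtOH replicate 2, 11D EtOH replicate 2, 11D IAA replicate 1 or 11D IAA replicate 2 left no lower member.

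The authors' deposited table of IAA against EtOH, in which 17.8% of 21210 genes with an adjusted p were lower and 18.8% higher, held 21 members as lower, 5 as higher and 16 without a call, with a median log2 fold change of -0.27. In the authors' deposited table Cenpa stood at -1.49 and Top2a at -1.29, and Cdc20, Prc1 and Smc2 had no call (-0.19, -0.22 and -0.20). Nek2, Foxm1, Spc25 and Ndc80 were higher in the authors' deposited table at 0.62, 0.47, 0.42 and 0.33.

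Beyond the 42 members, 101 other genes of mitosis in 7 lists were examined by count. Of these, 51 fell, 14 rose and 36 did not pass, with a median log2 fold change of -0.27. Library totals gave 27 lower and 34 higher with a median of 0.07. Under that scaling the median of all genes was 0.36 and 72.9% of all calls were higher. The genes named from these lists and from the S phase list kept their call and direction under both scalings, and the counts that follow are those with TMM. Of 12 cyclin, CKS and entry regulators 8 fell and 1 rose, with Ccnb2 (cyclin B2, -0.65 ± 0.09) and Cks1b (a CDK-binding protein, -0.75 ± 0.11) lower and Arpp19, an inhibitor of the phosphatase that opposes CDK1, higher (0.66 ± 0.09). Of 17 further anaphase-promoting complex genes, 8 fell and 3 rose, with the coactivator Fzr1 (-0.69 ± 0.10) and the inhibitor Fbxo5 (-0.70 ± 0.11) lower and the subunits Anapc7 (0.89 ± 0.09) and Anapc15 (0.38 ± 0.11) higher. The 17 inner kinetochore and CENP-A loading genes had 4 lower (23.5%) and 5 higher (29.4%), near the 28.1% and 29.3% of all genes. Their median was -0.06. Library totals gave 2 lower and 8 higher with a median of 0.27, below the 0.36 of all genes under that scaling. Among them, Cenpi fell (-0.80 ± 0.12), and Cenpk (0.88 ± 0.19) and Cenpn, which binds CENP-A nucleosomes (0.64 ± 0.13), rose.

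Of 14 further outer kinetochore genes 7 fell and 1 rose. Kntc1 and Zwilch, subunits of the complex that brings dynein to kinetochores, gave -0.90 ± 0.09 and -0.77 ± 0.11, and Mis12 gave 0.64 ± 0.11. Of 10 condensin, separase and shugoshin genes, 5 fell and 1 rose, with the condensin I subunit Ncapd2 at -1.04 ± 0.09, Sgo2a at -0.77 ± 0.11 and Cdca5 (sororin) at 0.44 ± 0.10. Of 17 further spindle and cytokinesis genes 10 fell and 1 rose, with the microtubule polymerase Ckap5 at -1.16 ± 0.10, the abscission protein Cep55 at -1.10 ± 0.09 and the kinesin Kif18b at 0.46 ± 0.09. The 14 genes of MuvB, B-Myb, DREAM and NF-Y, the factors named above for CHR and CCAAT elements, had 9 lower and 2 higher. Binding to the windows shown was not measured, and a part of these changes in those of the members was not tested. Mybl2, which encodes B-Myb, averaged 382 ± 49.0 CPM with IAA and 826 ± 82.2 CPM with EtOH (-1.12 ± 0.12), Nfya averaged 51.3 ± 5.51 and 98.4 ± 8.02 CPM (-0.92 ± 0.11), and the DREAM pocket protein gene Rbl2 averaged 49.8 ± 5.51 and 27.0 ± 8.54 CPM (0.82 ± 0.15). Lin54, the MuvB subunit that contacts the CHR, rose by 0.45 ± 0.10 on the log2 scale.

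The genes of DNA replication gave like counts. Of 43 of them, 27 fell, 4 rose and 12 did not pass, with a median of -0.33, beside -0.34 for the members. With library totals 16 were lower and 13 higher, where the median of all genes was 0.36. The replication genes Pola1 (-1.67 ± 0.09) and Mcm10 (-1.26 ± 0.09) fell, and Ccne2 (cyclin E2, 1.15 ± 0.17) and Slbp, which binds histone mRNA ends (0.43 ± 0.10), rose.

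The promoter windows were searched for TTTGAA and CCAAT on both strands. A match of one may share end bases with a match of the other, and both were then counted. A match describes letters, not a bound site. The CHR letters stood in 78.9% of the 38 member windows, against 17.9% of all 32851 RefSeq windows, and CCAAT in 78.9%, against 37.4%. Both stood in 68.4% of member windows and 6.95% of all windows. Other mitosis genes had CHR letters in 37.1% of windows and CCAAT in 54.3%, and S phase genes in 10.0% and 60.0%. Members were chosen as mitosis genes, which are known for this layout, so the shares describe the list and not the treatment. Measured from 0 at the annotated start, CHR matches had a median centre at 4.5 and CCAAT matches at -64.5.

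By change with IAA, all 20 lower members that have a window held CHR letters, as did 3 of 4 higher members and 4 of 11 members without a call. The Kif2c window among these 20 lies inside the gene, at chr4:117178723-117179022 (minus strand), while GENCODE M21 starts the gene at 117182639. CCAAT stood in 18 of the 20 lower, 3 of the 4 higher and 6 of the 11 others. The higher members Ndc80, Spc25 and Ckap2 also carry CHR letters, in Spc25 downstream of its CCAAT boxes and in Ckap2 upstream. Nek2 carries CCAAT boxes without CHR letters. Among the 8 members without CHR letters none fell, with a median log2 fold change of -0.18, beside -0.41 for the 27 that hold them. This count rests on calls that single libraries change: without 10E EtOH replicate 1, 3 of the 8 were lower (Nuf2, Cenpe and Birc5), beside 21 of the 27, and without the 10E IAA library 1 of the 8 (Cenpe), beside 17 of the 27. With library totals none of the 8 and 9 of the 27 were lower. In the other mitosis lists 19 of 37 genes with CHR letters fell (51.4%), and 24 of 51 without them (47.1%). Over all genes tested with a window, the shares lay close together: 32.9% of 1724 genes with CHR letters fell and 30.1% rose, and 31.3% of 10014 genes without them fell and 28.6% rose. Among S phase genes, 21 of 31 without CHR letters fell. Aurkb, Cdc25c, Foxm1, Incenp, Kif20a, Smc4 and Tpx2 had no window.

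**Figure D5:**
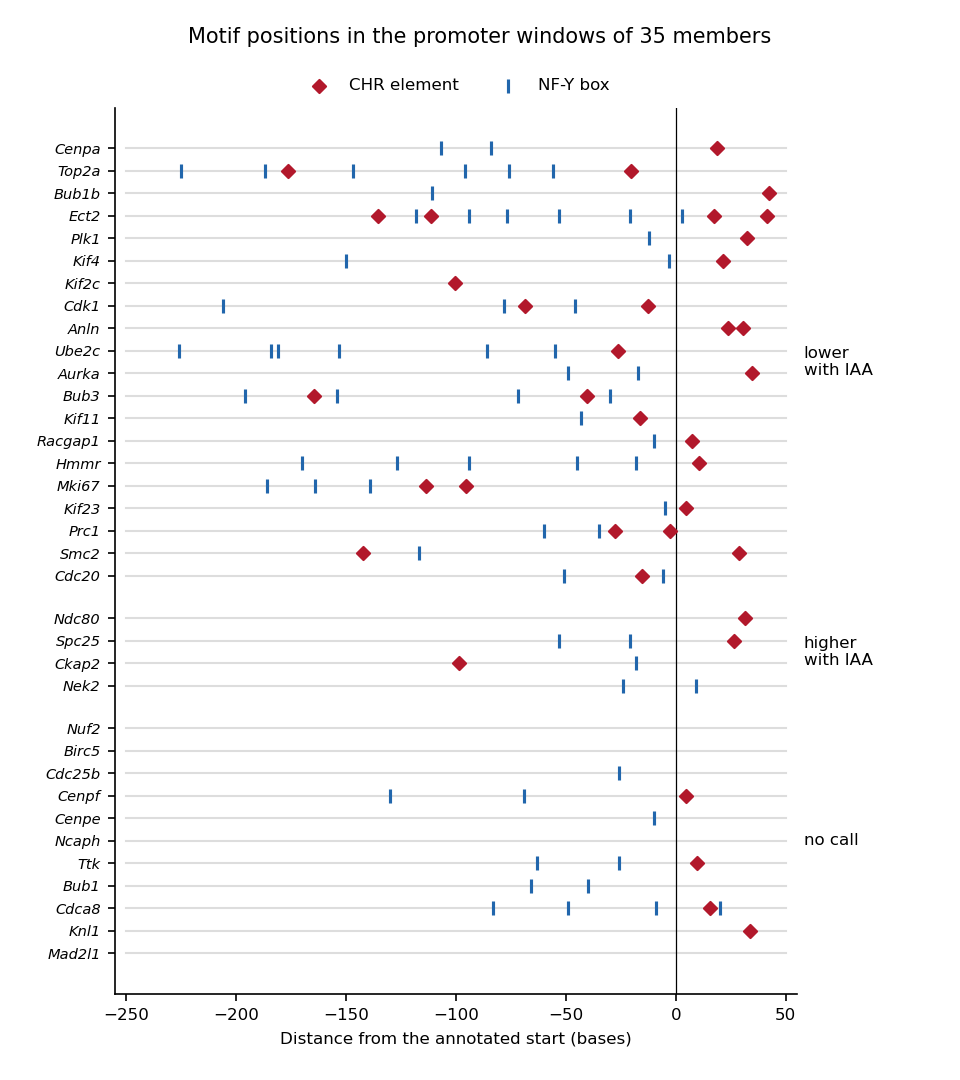
Centres of CHR (red diamonds) and NF-Y box (CCAAT, blue bars) matches by distance from the annotated start (x axis, bases) in the windows of 35 members (rows), grouped by their call in IAA against EtOH with TMM scaling; where a gene has more than 1 window, matches are placed from each window's own start. Every one of the 20 lower members has a red diamond, against 4 of 11 without a call; without 10E EtOH replicate 1, Nuf2, Cenpe and Birc5, which have no diamond, are called lower too, and with library totals Kif23, Prc1, Smc2 and Cdc20 of the lower group turn above 0.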

How the data were processed

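RNA-seq read counts per gene symbol were used as the authors deposited them, whole numbers without normalization, in 1 table of 10 libraries. STAR, deepTools and mm10 are named, without versions, per the submitters' processing notes; the sources used here do not give the read counter, annotation or strand setting, and the kit is directional per the labels. There are 11 samples in the labels and 12 libraries in the design text. The untagged line was taken to be the columns coded TIR1, since that code alone has an IAA replicate 3 and no EtOH column, and nothing ties 10E and 11D to the labels' clone numbers. In the authors' deposited table of IAA against EtOH, the columns have DESeq2's names per the file headers: a base mean (signal), a log2 fold change and its error, a score (the Wald statistic) and raw and adjusted p-value. It was used for description only.

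Counts were tested with edgeR 4.0.16 in R 4.3.3 (TMM, filterByExpr on line and treatment, quasi-likelihood F test, Benjamini-Hochberg FDR under 0.05 over all genes tested), and DESeq2 1.42.0 was an alternative. IAA against EtOH was fitted on the 7 tagged libraries, and line was a term. Lines, the interaction and 10E against 11D used 1 coefficient per line and treatment in these 7 libraries, and comparisons with untagged cells used the 10 libraries, with 10E and 11D averaged. SE is the absolute log2 fold change over the square root of F. The fit was tested on simulated counts. Exon lengths came from GENCODE M21 (mm10), which matched 42 of 42 members. Replicate pairs differed beyond counting noise, with chi-square values of 3.05 to 28.9 per degree of freedom. Whether they came from separate cultures is not stated, and the p-values may thus reflect technical spread only. Replicate numbers were not taken as pairs, as no label says that they mark a shared day or batch. Over pairs of groups, deviations of same-numbered libraries correlated from -0.539 to 0.678. The highest value was that of 11D EtOH with 11D IAA, so a pairing within 11D is possible. A fit with the replicate number as a block is given below. The design had assumed 8 tagged libraries.

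Members and lists were chosen with earlier results of these data known. All members are named, with up to 2 called genes per other list and direction with the smallest FDR, and Supt16. A gene that this rule names is not reported here.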

Additional observations from a re-analysis of the deposited data

How the results depend on the processing

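Every comparison was rerun with library totals or DESeq2 size factors in place of TMM, without the filter on low counts, with DESeq2, with the replicate number as a block and without each library in turn; for the lines and 10E against 11D these, with library totals for the other gene lists and the counts by CHR letters under each alternative, were added after seeing the data. IAA against EtOH was also run without the line term, with all 10 libraries and without both EtOH libraries with most CT010467.1. Leaving out the 10E IAA library could not be fitted for the interaction or for 10E.

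With library totals, IAA against EtOH gave 10 members higher and 12 lower (median -0.0089) and 2859 genes lower; tagged against untagged IAA gave 6 and 14 (median -0.0536) and 3013 genes lower; tagged EtOH against untagged gave 6 members and 715 genes lower; 10E gave 8 higher, 8 lower and a median of 0.0432; and 11D gave 9 higher, 11 lower and a median of -0.026. Library totals turned 12 members above 0 against EtOH (Ttk 0.27, Cdc20 0.0911, Kif23 0.0218, Prc1 0.0456, Smc2 0.0709, and Cdc25b, Cdc25c, Birc5, Cenpe, Cenpf, Nuf2 and Ncaph at 0.0751 to 0.161), and 11 against untagged cells (Bub1 0.0013, Bub3 0.0189, Cdc20 0.29, and Cdc25c, Birc5, Ttk, Ube2c, Spc25, Knl1, Kif23 and Ncaph at 0.0371 to 0.286). A fold of at least 1.5 as a further condition left 0 members higher and 13 lower against EtOH.

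Without the filter, tagged EtOH against untagged gave 5 members lower, 643 genes higher and 723 lower, the interaction 12 genes higher and 15 lower, and 10E 0 members higher. DESeq2 gave 6 members lower and 350 genes higher for tagged EtOH against untagged, 1 gene lower for the interaction, 1 member higher in 10E and 4 lower for 10E against 11D. DESeq2 size factors gave 5 members higher in 11D. With the replicate block, tagged EtOH against untagged gave 1 member lower and 143 genes higher, and 10E against 11D 4 members lower; no member's call in IAA against EtOH changed, while in tagged against untagged IAA 24 members were lower in place of 27, without Aurka, Bub3 and Cenpe.

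Leaving out 1 library at a time gave, for IAA against EtOH, 3 to 6 members higher (3 without the 10E IAA library or 11D IAA replicate 2); for tagged EtOH against untagged, 1 to 5 members lower, 17 to 509 genes higher (17 without untagged replicate 1 and 509 without 11D EtOH replicate 2) and 66 to 546 lower (66 without untagged replicate 1 and 546 without 10E EtOH replicate 2); for the interaction, 0 to 2 genes lower (2 without 10E EtOH replicate 1); for 10E, 1 to 3 members higher; for 11D, 14 to 25 lower; and for 10E against 11D, 1 to 2 higher and 0 to 4 lower. In IAA against EtOH, 15 members were called under all 15 alternatives, 15 called members lost their call under at least 1, 9 gained one under some, and Cdc25b, Cdc25c and Ncaph had none. The SE of a member's log2 change in that comparison was 0.0846 to 0.155, so changes well below that were not detectable. Changes larger than their SE also went without a call, such as Nuf2 at -0.2557 (SE 0.1105) and Birc5 at -0.2263 (SE 0.0982).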
